A study of Mus musculus with 9 samples.

Results

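Respiratory complex I (NADH:ubiquinone oxidoreductase) is built from proteins of 2 genomes, and the mRNA of 42 of its subunits was followed here in mouse bone marrow-derived macrophages (BMDMs). The 42 genes were taken by symbol, 7 from mitochondrial DNA (mt-Nd1 to mt-Nd6 and mt-Nd4l) and 35 from the nucleus (the Nduf genes), out of 55655 rows in each of 2 tables of FPKM. FPKM counts fragments relative to transcript length and to all mapped fragments of a library, so that levels can be compared between genes of different length. All 42 genes had a row, and all 42 passed the filter used for testing (3 or more libraries at an FPKM of 1 or above).

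The cells came from the femur and tibia marrow of wild-type C57BL/6 mice aged 6 to 8 weeks and were grown for 7 days in medium with M-CSF, a macrophage growth factor, at 10 ng/mL. Resting macrophages (M0) received no further stimulus, M1 macrophages were polarized with lipopolysaccharide (LPS) and interferon-γ (IFN-γ), and M1+PBM macrophages were given the same stimulus together with photobiomodulation (PBM), which is irradiation of the culture with a near-infrared laser. RNA of the M1 and M1+PBM groups was taken after 12 hours of induction, and the labels give no time for M0. Each group held 3 libraries. The labels do not say whether the replicates were separate mice or separate cultures, so p-values measure the spread between these libraries, which may be technical. M0 stands in a table of its own, and for this reason no test was made against M0. The labels do not say whether M0 was prepared and sequenced together with the other groups. In every comparison with M0, stimulation and a possible difference in batch therefore cannot be told apart. The M1 libraries enter both comparisons, M1 against M0 and M1+PBM against M1.

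Complex I takes electrons from NADH, passes them along a chain of iron-sulfur clusters to ubiquinone and pumps protons across the inner mitochondrial membrane. Its peripheral arm in the matrix is made of nuclear subunits only, while the core of its membrane arm is encoded by mitochondrial DNA, and accessory nuclear subunits surround both arms. Macrophages stimulated with LPS and IFN-γ are known to lower mitochondrial respiration and to rely on glycolysis, and complex I is a known site of reactive oxygen species formation in these cells.

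The macrophage markers Adgre1, Itgam, Csf1r, Cd68, Lyz2, Mertk, Fcgr1, Cd14 and Spi1 were present in all 9 libraries, and the summed FPKM of the 10 markers of M1 polarization was 29.4 to 325 in M0, 2649 to 2961 in M1 and 1561 to 2380 in M1+PBM. M0 replicate 3 stood apart, with the highest sum of M1 markers and of 9 stromal and endothelial markers in its group (222, against 8.29 in the lowest M0 library). The neutrophil markers summed to 3.14 to 5.82 in M0, 9.91 to 28.8 in M1 and 8.09 to 16.6 in M1+PBM, with S100a9 and Ly6g listed at 0 and S100a8 the highest of them in each stimulated library. The sums for dendritic, lymphoid and erythroid markers were at most 6.59 in any library. Their part in the results was not tested, and M0 replicate 3 was left out in a further calculation of the differences from M0. The 3 highest rows, the signal recognition particle RNA genes Rn7s1 and Rn7s2 and Gm47299, held 30.9% to 37.8% of all FPKM, and mitochondrial rows held 0.594% to 1.60%. Because FPKM in a library is relative to everything else in it, less RNA per cell and fewer contributing cells cannot be told apart.

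The mitochondrial subunit genes lie close together on the circular genome, and 2 pairs of them share bases, which matters for how fragments are assigned to rows. In the GENCODE M21 annotation of GRCm38, mt-Nd4l (chrM:9877-10173) ends inside the start of mt-Nd4 (chrM:10167-11544) on the same strand, with 7 shared bases. The genes mt-Nd5 (chrM:11742-13565) and mt-Nd6 (chrM:13552-14070) run towards each other on opposite strands and share 14 bases. The ends are shown from the GENCODE transcripts, 5′ to 3′, with the shared bases in capitals.
mt-Nd4l 3-prime end: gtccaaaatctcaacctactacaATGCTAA
mt-Nd4 5-prime end: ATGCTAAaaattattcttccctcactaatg
mt-Nd5 3-prime end: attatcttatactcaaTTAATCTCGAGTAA
mt-Nd6 3-prime end: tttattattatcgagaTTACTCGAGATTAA
The library kit is labelled strand-specific, but whether strand was used when fragments were counted is not given in the sources used here, so reads from the ends of mt-Nd5 and mt-Nd6 may have been split between the 2 rows. The shared stretches are short beside the genes, which are 297 (mt-Nd4l) to 1824 (mt-Nd5) bases long. Among the 7 genes, mt-Nd6 is the only member on the light strand, with 28.1% G in its transcript against 8.00% to 11.6% G in the other 6.

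In resting macrophages 6 of the 7 mitochondrial subunits had a higher mean FPKM than any nuclear subunit, and mt-Nd3 stood among the highest nuclear ones. Their mean FPKM in M0 ranged from 35.1 (mt-Nd3) to 294 (mt-Nd1), while the 35 nuclear subunits ranged from 2.41 (Ndufb2) to 43.9 (Ndufa8). As listed, mt-Nd1 was the highest and mt-Nd3 the lowest of the 7 by mean FPKM in all 3 groups. This order rests on how fragments were divided between near-identical rows: summed with its copy Gm10222, mt-Nd4l had a mean of 369 FPKM in M0, above mt-Nd1, and mt-Nd3 with its copy Gm28438 had 64.9, above every nuclear subunit. The middle of this order (mt-Nd4, mt-Nd4l, mt-Nd5 and mt-Nd6) was not resolved in M0, where the 4 means lay between 170 and 185 FPKM with SDs of 44.4 to 54.0 (n = 3).

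In M1, all 7 mitochondrial subunits had lower group means than in M0, by 32.8% (mt-Nd6) to 62.9% (mt-Nd3) on the linear FPKM scale. The core subunit mt-Nd1, which lies where the arms of the complex meet near the ubiquinone entry, measured 322, 300 and 259 FPKM in the M0 libraries (replicates 1 to 3), 141, 216 and 75.1 in M1, and 152, 182 and 112 in M1+PBM. Its means were 294 ± 32.3, 144 ± 70.6 and 149 ± 35.03 (SD, n = 3). Every M0 library lay above every library of the other groups, and the M1 and M1+PBM libraries overlapped.

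The antiporter-like proton-pumping subunits are mt-Nd2, mt-Nd4 and mt-Nd5. For mt-Nd2 the FPKM was 88.4, 74.4 and 57.8 in M0, 29.1, 50.9 and 14.4 in M1 and 27.7, 40.9 and 21.9 in M1+PBM. For mt-Nd4 it was 216, 185 and 125 in M0, 75.0, 119 and 36.1 in M1 and 77.8, 95.5 and 53.4 in M1+PBM. Both were lower in every M1 library than in any M0 library, although M1 replicate 2 came close to M0 replicate 3. The largest of the mitochondrial genes, mt-Nd5, measured 220, 173 and 128 FPKM in M0, 104, 133 and 63.8 in M1 and 113, 122 and 81.8 in M1+PBM. Here M1 replicate 2 lay just above M0 replicate 3, so that M0 and M1 overlapped, whereas M1+PBM did not overlap with M0. Compared by replicate number, mt-Nd5 was lower in M1 than in M0 for every number, although the labels do not say that the numbers of M0 match those of M1.

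Of the small membrane subunits, mt-Nd3 measured 40.4, 38.2 and 26.5 FPKM in M0, 11.7, 19.5 and 7.84 in M1 and 19.0, 16.8 and 11.3 in M1+PBM. The FPKM of mt-Nd4l was 224, 194 and 137 in M0, 70.9, 120 and 36.7 in M1 and 77.2, 95.5 and 57.5 in M1+PBM. Neither gene overlapped between M0 and the stimulated groups. The light-strand gene mt-Nd6 measured 229, 158 and 124 FPKM in M0, 125, 140 and 78.4 in M1 and 127, 149 and 90.9 in M1+PBM, and its 3 groups overlapped. Compared by replicate number, it was lower in M1 and in M1+PBM than in M0 for every number, with the same limit on matching to M0. It had the smallest difference between M0 and M1 of the 7, with a log2 difference of -0.56, against -0.81 for mt-Nd5 and -1.14 to -1.43 for the other 5.

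**Figure D1:**
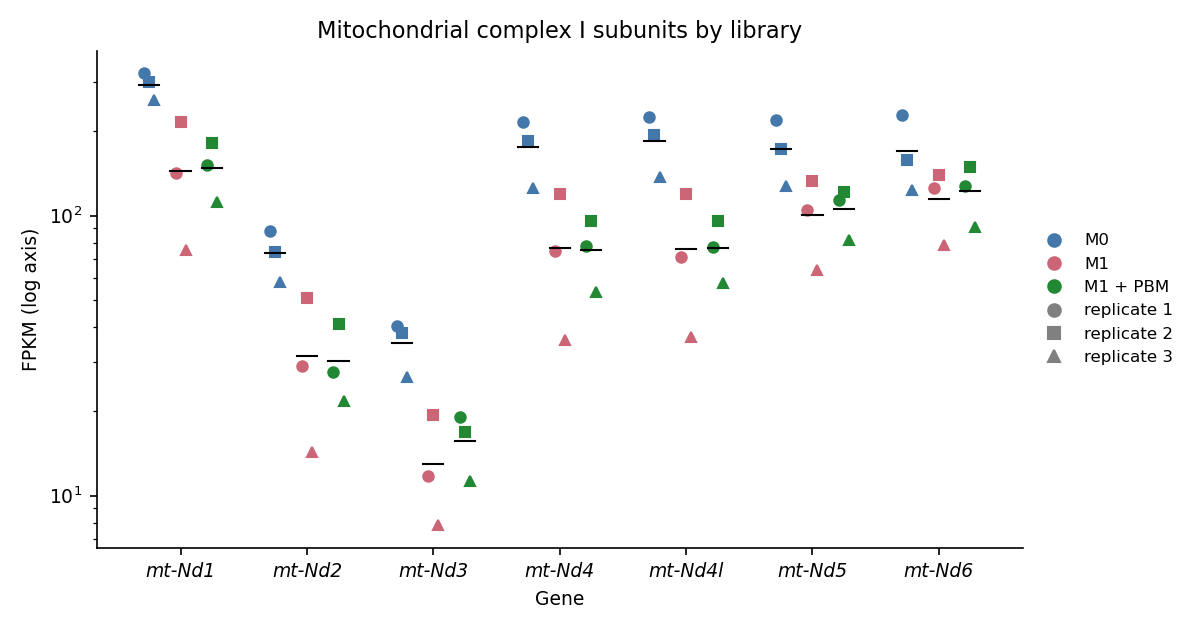
FPKM (log axis) of the 7 mitochondrial complex I subunits in each library of M0, M1 and M1+PBM; circles, squares and triangles are replicates 1, 2 and 3 and black lines are group means. The M0 libraries lie above the M1 libraries without overlap for 5 of the 7 genes (not for mt-Nd5 and mt-Nd6), and M1 replicate 3 is the lowest of the 9 libraries for all 7.

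Counted over the genes, 5 of 7 mitochondrial subunits were lower in M1 than in M0 without overlap, and 5 of 7 had a log2 difference of -1 or less, calculated from means of log2(FPKM + 1). Among the 13915 rows that reached an FPKM of 1 in 3 or more of the 9 libraries, 50.6% were lower in M1 without overlap and 14% had a log2 difference of -1 or less, with a median of -0.34. The median of the 7 mitochondrial subunits was -1.31, that is 0.97 below the median of all rows. M1+PBM stood beside these values with a median of -1.12 against M0 and 6 of 7 without overlap (mt-Nd6 overlapped), where 46.2% of all rows were lower without overlap. Without M0 replicate 3 all 7 were lower in M1 without overlap, and the median was -1.51, while 57.4% of all rows were lower without overlap and their median was -0.35. M1 replicate 3 carried much of the size of the difference, since the median without it was -0.85 and the median of all rows was -0.30.

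The nuclear subunits were lower in M1 by a smaller margin. The group mean of log2(FPKM + 1) was lower in M1 for 34 of 35, against 72.6% of all rows. The median log2 difference was -0.38, close to the median of all rows, and 20 of the 35 lay below that median and 15 above it. This closeness depended on the row filter. Among rows with a mean FPKM of at least 5 the nuclear median was -0.37 against -0.23, with 21 of 28 below. With no minimum FPKM 31 of 35 lay below the median of all rows. Without overlap, 29 of 35 were lower and 1 was higher (Ndufs4), against 50.6% and 15.6% of all rows. A log2 difference of -1 or less was found for 1 nuclear subunit, Ndufb11, and none was higher by 1 or more, as 8.21% of all rows were. M1+PBM had 25 of 35 nuclear subunits lower than M0 without overlap and 1 higher (46.2% and 15.9% of all rows), with a median of -0.27, equal to that of all rows. How far the nuclear values can be called lower depended on the scaling of the libraries. Median-of-ratios scaling, in which each library is divided by the median ratio of its rows to a common reference, moved the median of all rows to 0.056. The nuclear median was then 0.061, and 22 of 35 were higher in M1 than in M0. Without overlap, 7 of 35 were lower and 8 higher, against 24.1% and 32.5% of all rows. The mitochondrial median stayed at -0.81 under that scaling, with 7 of 7 means lower in M1 but 1 of 7 without overlap. Without M0 replicate 3, on the deposited scale, the nuclear median was -0.39 with 29 of 35 lower without overlap, against 57.4% of all rows. Under quantile normalization the medians were -1.43 for the mitochondrial and -0.17 for the nuclear subunits. The median of all rows was -0.058, and 27 of 35 nuclear subunits lay below it, against 17 of 35 below that of median-of-ratios scaling.

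**Figure D2:**
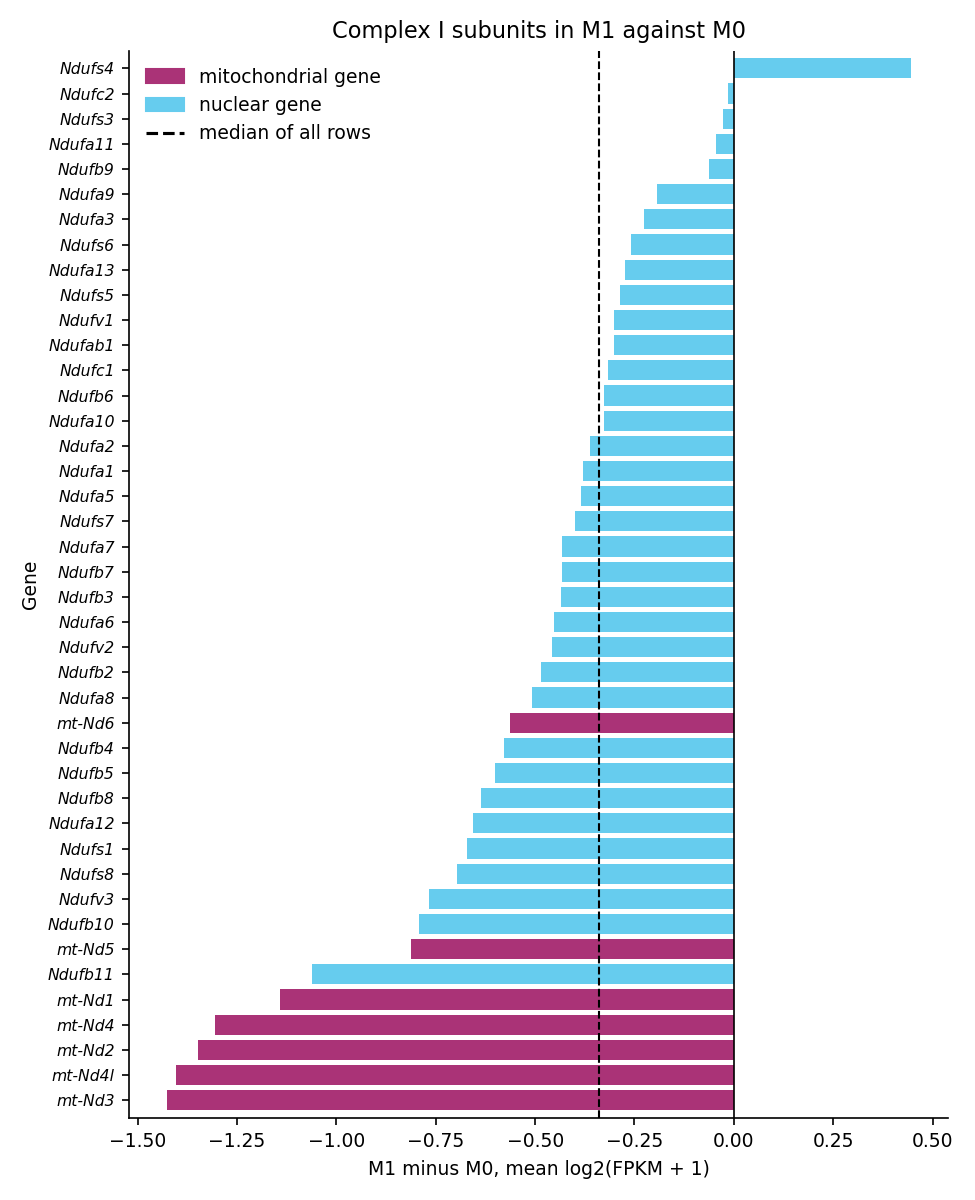
Difference of mean log2(FPKM + 1), M1 minus M0, for each of the 42 subunits (bars; 3 libraries a group, no test), with the median of all rows (-0.34) as a dashed line. All 7 mitochondrial genes lie to the left of the dashed line, the nuclear genes lie on both sides, and Ndufs4 is the only gene above 0; under median-of-ratios scaling 22 nuclear genes are above 0.

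A ratio between genes of the same library does not depend on how that library was scaled. The summed FPKM of the 7 mitochondrial subunits divided by that of the 35 nuclear subunits was 2.88, 2.45 and 1.67 in M0, 1.51, 2.13 and 0.944 in M1 and 1.56, 1.80 and 1.09 in M1+PBM. The means were 2.34 ± 0.615, 1.53 ± 0.591 and 1.48 ± 0.360 (SD, n = 3). M0 replicates 1 and 2 lay above every stimulated library, but M0 replicate 3 lay below M1 replicate 2 and M1+PBM replicate 2, so the groups overlapped. Compared by replicate number, the ratio was lower in M1 and in M1+PBM than in M0 for every number. Whether the numbers of M0, which is in a separate table, match those of the stimulated groups is not known. On the log2 scale the ratio was lower in M1 than in M0 by a mean of -0.66, which was -0.88 without M0 replicate 3 and -0.35 without M1 replicate 3. Between M1+PBM and M1 the log2 ratio differed by 0.0069, with values of -0.30 (without M1 replicate 3) to 0.28 (without M1 replicate 2) when each library was left out, so its direction was not settled.

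Within the mitochondrial transcripts M0 separated from the stimulated groups in ratios that rest largely on mt-Co1. The summed FPKM of the 7 subunits divided by that of the 6 other protein-coding mitochondrial genes (mt-Co1, mt-Co2, mt-Co3, mt-Atp6, mt-Atp8 and mt-Cytb) was 0.302, 0.260 and 0.272 in M0, 0.182, 0.223 and 0.172 in M1 and 0.188, 0.217 and 0.205 in M1+PBM. Every M0 library lay above every stimulated library, and M1 and M1+PBM overlapped. Most of the sum below the line was mt-Co1, with a mean of 2393 of 3972 FPKM in M0 and 1896 of 2821 in M1. Since mt-Co1 differed least from M0 of the 6, the separation was not shown for complex I against the other mitochondrial mRNAs in general. The ratio of mt-Nd1 to mt-Co1, the core subunit of cytochrome c oxidase, showed the same order, with 0.122, 0.116 and 0.132 in M0, 0.0687, 0.0913 and 0.0595 in M1 and 0.0733, 0.0856 and 0.0796 in M1+PBM. Without M0 replicate 3 none of the 6 other genes overlapped between M1 and M0, while 57.4% of all rows were lower without overlap. With all libraries the log2 difference between M1 and M0 was -0.37 for mt-Co1, -0.64 for mt-Co2, -0.74 for mt-Co3, -0.85 for mt-Atp6 and -0.89 for mt-Atp8, and M1 overlapped with M0 for these 5. It was -1.42 for mt-Cytb, the mitochondrial subunit of complex III, which did not overlap and was as low as mt-Nd3. The differences of mt-Nd5 (-0.81) and mt-Nd6 (-0.56) lay within the range of these 6 genes. These ratios were chosen after the values had been seen and carry no test. The near-identical copies of mt-Nd3, mt-Nd4 and mt-Nd4l, described below, were left out of the sum. Copies of the 6 other mitochondrial genes were not searched for.

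**Figure D3:**
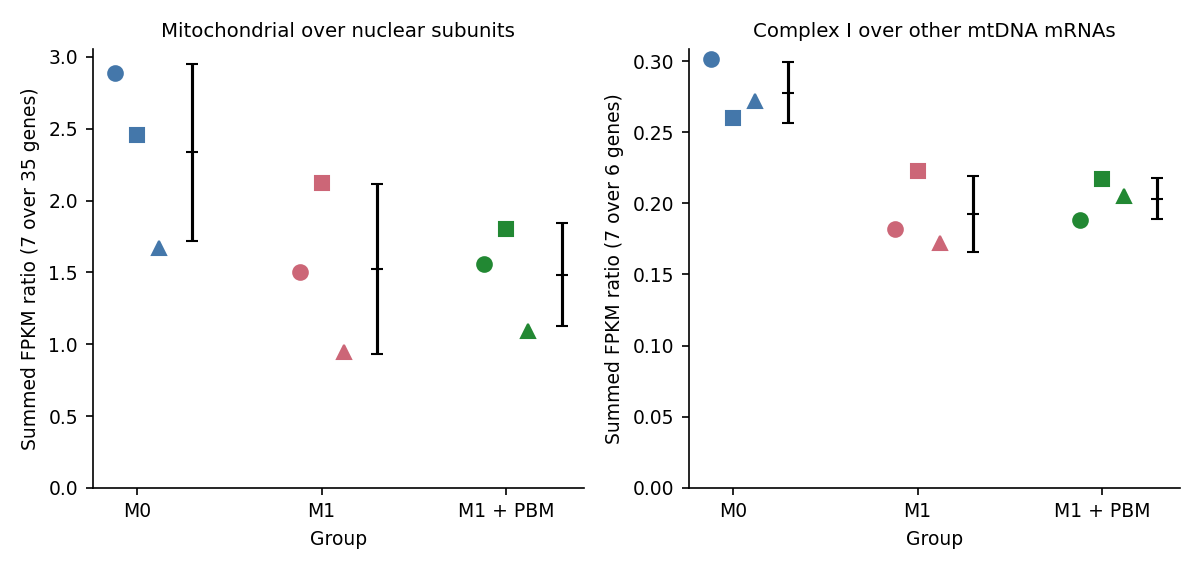
Ratios of summed FPKM in each library, with circles, squares and triangles for replicates 1, 2 and 3 and bars for mean ± SD (n = 3): the 7 mitochondrial over the 35 nuclear complex I subunits (left) and the 7 mitochondrial subunits over the 6 other mitochondrial mRNAs (right). On the left M0 replicate 3 (1.67) falls among the stimulated libraries, while on the right all M0 libraries (0.260 to 0.302) lie above all stimulated ones (0.172 to 0.223). On the right most of the summed FPKM of the 6 other mRNAs is mt-Co1.

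The nuclear core subunits form the electron path of the peripheral arm. Ndufv1, which holds the flavin and binds NADH, measured 11.3, 9.68 and 11.5 FPKM in M0, 8.34, 9.25 and 8.17 in M1 and 8.38, 8.51 and 10.2 in M1+PBM. Its partner Ndufv2, an iron-sulfur protein, measured 13.2, 12.7 and 13.6 in M0, 8.96, 10.1 and 8.85 in M1 and 8.11, 9.46 and 12.7 in M1+PBM. Both were highest in M0, and for Ndufv1 alone of this pair the M1+PBM libraries reached into the M0 range.

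Ndufs1, the large iron-sulfur subunit of the NADH module, measured 7.28, 7.61 and 7.61 FPKM in M0, 4.45, 4.64 and 3.94 in M1 and 5.44, 5.31 and 5.08 in M1+PBM. The 3 groups were fully separated, with M1 lowest, M1+PBM between and M0 highest. In the module that delivers electrons to ubiquinone, Ndufs7 had the same order, with 16.7, 15.6 and 16.9 FPKM in M0, 13.0, 12.2 and 11.4 in M1 and 13.3, 13.4 and 13.6 in M1+PBM.

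Ndufs3 of the same module did not separate, with 9.93, 10.8 and 9.47 FPKM in M0, 9.69, 10.7 and 9.25 in M1 and 10.9, 10.6 and 11.3 in M1+PBM. Ndufs8, which carries a pair of iron-sulfur clusters, measured 20.2, 19.6 and 28.7 in M0, 13.4, 12.1 and 15.1 in M1 and 12.5, 17.8 and 13.9 in M1+PBM. It was lower in both stimulated groups without overlap. Of the 6 nuclear core subunits, 5 were therefore lower in M1 than in M0 without overlap, with log2 differences of -0.30 (Ndufv1) to -0.70 (Ndufs8), and Ndufs3 differed by -0.028. Of all rows, 50.6% were lower without overlap. Under median-of-ratios scaling Ndufv1 (0.16), Ndufv2 (0.0044), Ndufs7 (0.072) and Ndufs3 (0.43) were above 0, and Ndufs1 (-0.24) and Ndufs8 (-0.22) below.

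Among the accessory subunits, the largest differences from M0 were found in the membrane arm and the NADH module. Ndufb11, an X-linked membrane-arm subunit, measured 26.3, 27.5 and 26.6 FPKM in M0, 13.2, 12.9 and 10.9 in M1 and 17.0, 13.2 and 15.3 in M1+PBM. Ndufb10, also of the membrane arm, measured 10.2, 9.56 and 10.3 in M0, 5.41, 6.18 and 4.57 in M1 and 6.23, 6.34 and 6.96 in M1+PBM. The M0 libraries of both genes lay far above all others, with log2 differences between M1 and M0 of -1.06 and -0.79. The NADH-module accessory subunit Ndufv3 measured 7.48, 6.94 and 6.79 in M0, 4.19, 3.90 and 3.19 in M1 and 4.29, 4.23 and 4.63 in M1+PBM, a log2 difference of -0.77 between M1 and M0. All 3 stayed lower in M1 under median-of-ratios scaling, at -0.58, -0.35 and -0.34.

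Ndufs4, an accessory subunit that holds the NADH module to the peripheral arm, went the other way. Its FPKM was 5.39, 5.12 and 5.52 in M0, 7.88, 7.40 and 7.65 in M1 and 6.92, 6.59 and 6.96 in M1+PBM. The 3 groups did not overlap, with M1 highest and M1+PBM between, and the log2 difference between M1 and M0 was 0.45 (0.88 under median-of-ratios scaling). No other subunit was higher in M1 than in M0 on the deposited scale.

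Ndufa11, a membrane subunit that sits at the contact with complex III in respiratory supercomplexes, measured 7.18, 5.37 and 6.75 FPKM in M0, 5.64, 5.69 and 7.27 in M1 and 4.06, 5.10 and 4.85 in M1+PBM. Its M0 and M1 libraries overlapped, and M1+PBM lay below both. Ndufa7, an accessory subunit of the peripheral arm, measured 18.3, 18.2 and 20.0 in M0, 16.0, 14.5 and 11.1 in M1 and 12.7, 12.8 and 15.7 in M1+PBM. It was lower in both stimulated groups, which overlapped with each other.

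All accessory subunits are described here by their groups, which include those already given by library. Of the 13 Ndufa members, among them Ndufab1, the mitochondrial acyl carrier protein, 12 were lower in M1 without overlap, with a median log2 difference of -0.36 and a range of -0.66 to -0.046. Of the 10 Ndufb members 9 were lower without overlap, with a median of -0.53 and a range of -1.06 to -0.064, and Ndufb9 overlapped. Among the 6 others (Ndufc1, Ndufc2, Ndufs4, Ndufs5, Ndufs6 and Ndufv3), 3 were lower without overlap and 1 higher, with a median of -0.27. Without M0 replicate 3 these counts were the same, and the medians were -0.30, -0.54 and -0.15. Over all rows 50.6% were lower and 15.6% higher without overlap, with a median of -0.34. Without M0 replicate 3 these values were 57.4%, 18.7% and -0.35. Under median-of-ratios scaling 7 of all 35 nuclear subunits were lower without overlap and 8 higher, against 24.1% and 32.5% of all rows. Ndufc2 and Ndufs6, the latter a zinc-binding subunit of the NADH module, overlapped with M0.

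No complex I subunit passed the adjusted threshold between M1+PBM and M1. In limma, fitted on log2(FPKM + 1) across 12238 rows with Benjamini-Hochberg adjustment, the log2 fold change of M1+PBM against M1 was above 0 for 39 of 42 subunits and below 0 for Ndufa11, Ndufs4 and Ndufa7, while 65.6% of all rows were above 0; under median-of-ratios scaling 30 of 42 were above 0, with a median of all rows of -0.0056. The median was 0.12 for the 7 mitochondrial and 0.11 for the 35 nuclear subunits, against 0.058 for all rows. At an unadjusted p of at most 0.05, 1 subunit was higher (Ndufs1) and 1 lower (Ndufa11), against 2.99% and 1.45% of all rows. The adjusted p was under 0.05 for no subunit and for 0.00817% of rows, and none combined that unadjusted p with a change of 1 or more on the log2 scale (0.261% of rows). The adjusted p-values of the 42 lay between 0.90 and 0.998.

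Ndufs1 was higher with PBM in every library, with a log2 fold change of 0.23 (SE 0.092, 95% interval 0.013 to 0.46, limma unadjusted p = 0.041, adjusted p = 0.90). Ndufa11 was lower in every library, with a log2 fold change of -0.34 (SE 0.13, interval -0.65 to -0.029, limma unadjusted p = 0.036, adjusted p = 0.90). The exact two-sided permutation test gave p = 0.10 for each, the smallest p that 3 against 3 libraries allow. With the replicate number as a block, the limma unadjusted p was 0.038 for Ndufs1 and 0.024 for Ndufa11 (adjusted p = 0.58 for each). Neither call held in every setting. That of Ndufs1 was lost on leaving out any single library but M1 replicate 2 (log2 fold changes of 0.18 to 0.27 over the 6 libraries) and under median-of-ratios scaling (0.17) and quantile normalization (0.18). That of Ndufa11 was lost on leaving out M1 replicate 3 (-0.24), M1+PBM replicate 1 (-0.26) or M1+PBM replicate 3 (-0.37), without both libraries numbered 3 (-0.26), with nuclear rows rescaled to a common sum (-0.32) and without moderation of the variance.

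Counted by overlap, 7 subunits were higher in all M1+PBM than in all M1 libraries, namely Ndufs1, Ndufs7, Ndufa5, Ndufa8, Ndufab1, Ndufb10 and Ndufv3, and 2 were lower, Ndufa11 and Ndufs4. All 9 were nuclear, and the shares of all rows were 8.51% and 2.52%. For Ndufs4, which was higher in M1 than in M0, the log2 fold change with PBM was -0.14 (SE 0.083, limma unadjusted p = 0.13). For Ndufb11, the nuclear subunit furthest below M0, it was 0.27 (SE 0.13, limma unadjusted p = 0.074), the largest positive value of a nuclear subunit. Both comparisons share the M1 libraries, so values that are opposite in sign between them are not independent.

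**Figure D4:**
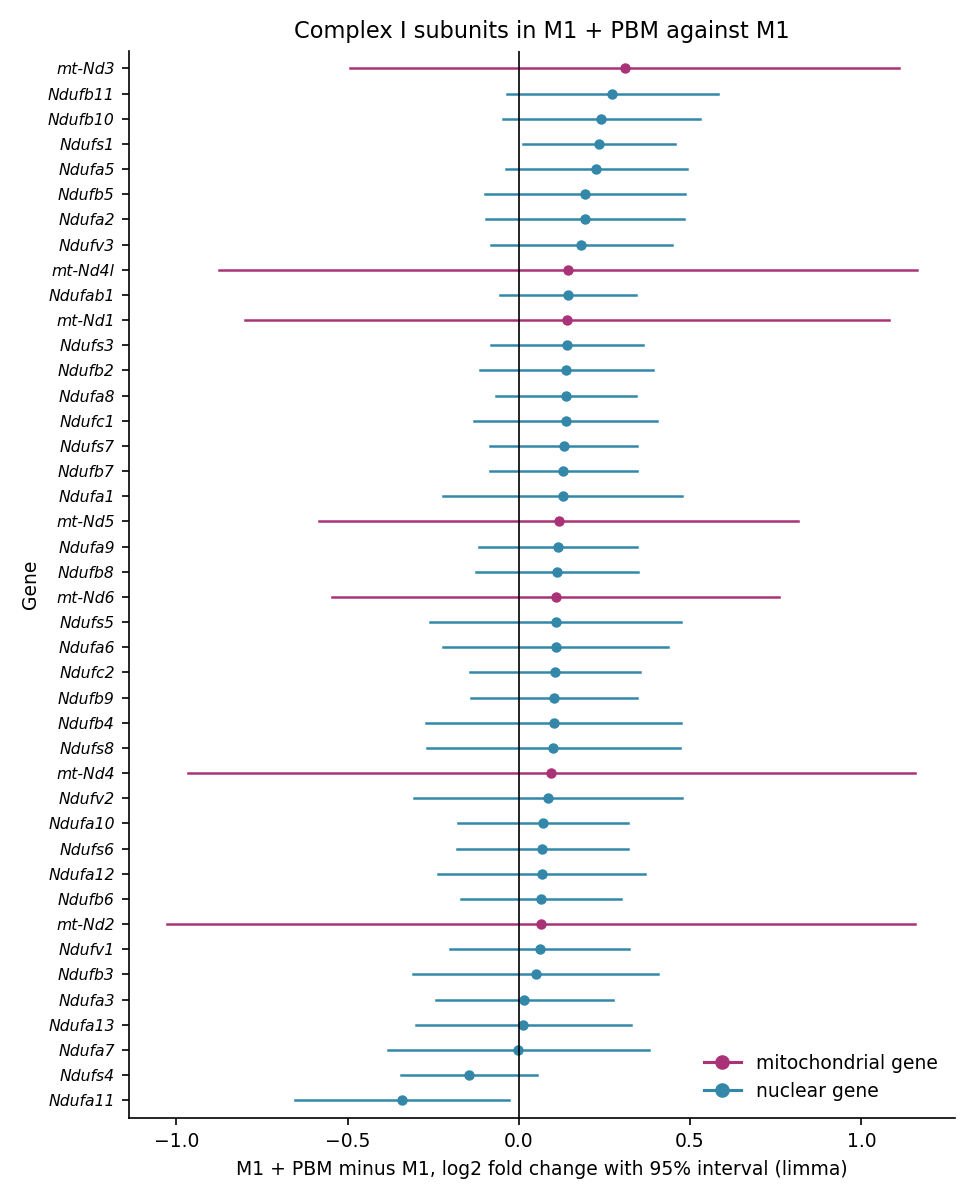
Log2 fold change of M1+PBM against M1 with its 95% interval (limma) for each of the 42 subunits, ordered by size. The intervals of 40 subunits include 0, those of Ndufs1 and Ndufa11 do not, and the mitochondrial genes have the widest intervals.

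The spread between libraries of a group was wider for the mitochondrial subunits. The SE of the log2 fold change was 0.27 to 0.45 for the mitochondrial subunits and 0.083 to 0.16 for the nuclear ones. In M1 the coefficient of variation had a median of 49.0% for the 7 mitochondrial and 10.1% for the 35 nuclear subunits, and in M1+PBM 24.8% and 7.88%. The 95% interval ran from -0.80 to 1.08 for mt-Nd1, from -0.49 to 1.11 for mt-Nd3 and from -0.55 to 0.76 for mt-Nd6. With the replicate number as a block, which takes up what libraries of the same number share, the SE was 0.079 to 0.19 for the mitochondrial and 0.074 to 0.17 for the nuclear subunits. The median SE was 0.18 and 0.095 with the block, against 0.39 and 0.11 without it. The gap between the genomes was smaller in the fit with the block but remained. The largest mitochondrial fold change was that of mt-Nd3, at 0.31 (SE 0.33, limma adjusted p = 0.90).

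The libraries numbered 3 stood apart in the mitochondrial subunits. Replicate 3 was the lowest of its group for 7 of 7 mitochondrial subunits in M0, in M1 and in M1+PBM, and M1 replicate 3 was also the lowest in M1 for 28 of 35 nuclear subunits. Compared by number, the mitochondrial subunits were higher with PBM for 6 of 7 in replicate 1 (median log2 difference 0.099), lower for 6 of 7 in replicate 2 (-0.25), and higher for 7 of 7 in replicate 3 (0.55). The nuclear subunits were higher for 22, 23 and 32 of 35, with medians of 0.036, 0.031 and 0.26. Without M1 replicate 3, 25 of 42 subunits were higher with PBM and the mitochondrial median was -0.26, and without both libraries numbered 3 it was -0.075, again with 25 of 42 higher. Without M1+PBM replicate 2 it was -0.027, and without M1 replicate 2 it was 0.49.

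**Figure D5:**
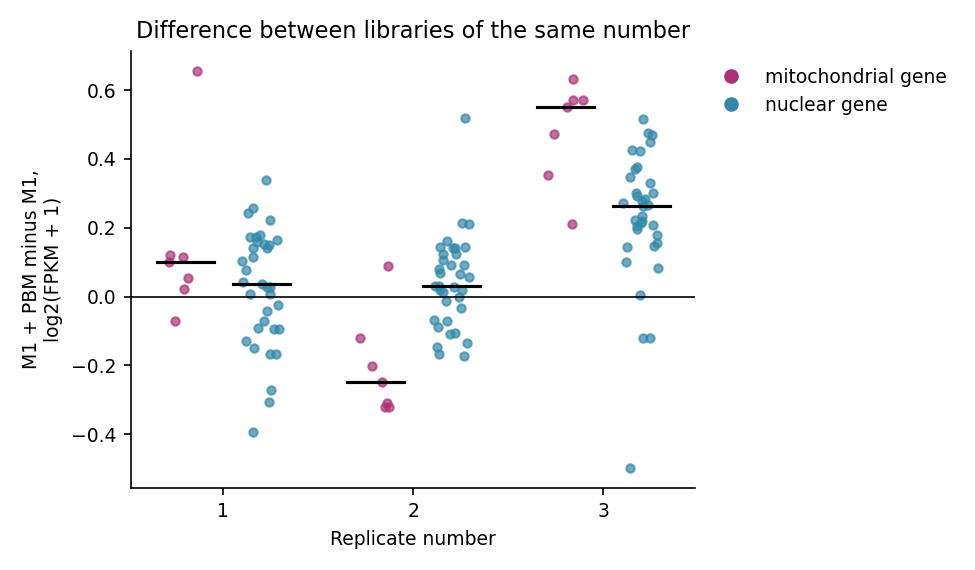
Difference in log2(FPKM + 1), M1+PBM minus M1, between libraries of the same replicate number, for the 7 mitochondrial and 35 nuclear subunits (points, shifted sideways for legibility; black lines are medians). The mitochondrial medians are 0.099, -0.25 and 0.55 for replicates 1, 2 and 3, and the nuclear medians 0.036, 0.031 and 0.26.

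Some subunits have near-identical copies elsewhere in the annotation, among which fragments may have been split. A copy with at least 95% identity over at least 200 bases and 50% of the shorter transcript was found for 14 of 42 members, and its row held more than 10% of the member's FPKM for 3 mitochondrial and 5 nuclear subunits. The row of Gm10222 was as high as that of mt-Nd4l (99.1% of its mean FPKM), Gm28438 stood at 82.3% of mt-Nd3 and Gm28439 at 48.6% of mt-Nd4. Summed with these copies, the log2 difference between M1 and M0 was -1.41 for mt-Nd4l, -1.54 for mt-Nd3 and -1.31 for mt-Nd4. For Ndufb4 the copy Ndufb4c was higher than the member itself (316%), and Ndufab1, Ndufa12, Ndufs5 and Ndufs3 had copies at 43.4%, 33.7%, 28.2% and 21.5%, so that the levels of these 5 nuclear subunits, like those of mt-Nd3, mt-Nd4 and mt-Nd4l, are uncertain.

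Assembly factors, which build the complex and leave it, were measured for comparison. Of 15 tested, 14 were higher with PBM (65.6% of all rows were), and 2 were higher at an unadjusted p of at most 0.05 (2.99% of all rows). Ndufaf3, which acts in the assembly of the ubiquinone module, measured 4.14 to 5.21 FPKM in M1 and 5.49 to 6.96 in M1+PBM (log2 fold change 0.37, limma unadjusted p = 0.021, adjusted p = 0.90). Dmac1, a factor of the distal membrane arm, measured 7.27 to 8.90 in M1 and 9.13 to 10.7 in M1+PBM (0.32, limma unadjusted p = 0.027, adjusted p = 0.90). Against M0, 9 of 17 factors (52.9%) were lower in M1 without overlap, near the 50.6% of all rows, with a median log2 difference of -0.26. Without M0 replicate 3 these were 11 of 17 and -0.29, against 57.4% of all rows. Ndufaf7 was the furthest below (0.25 to 0.53 FPKM in M1 against 2.23 to 2.57 in M0).

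The other respiratory complexes gave the setting. With PBM the median log2 fold change was 0.11 for complex II (4 genes tested), 0.051 for the nuclear subunits of complex III (9), 0.089 for those of complex IV (11) and 0.036 for those of ATP synthase (14), with no adjusted p under 0.05 in any list. Sdhb, the iron-sulfur subunit of succinate dehydrogenase, was the gene of these lists with an unadjusted p of at most 0.05, at 32.9 to 34.0 FPKM in M1 and 39.2 to 40.4 in M1+PBM (log2 fold change 0.24, limma unadjusted p = 0.027, adjusted p = 0.90). Between M1 and M0 the medians were -0.35, -0.23, -0.25 and -0.26 (-0.32, -0.17, -0.13 and -0.25 without M0 replicate 3), beside -0.38 for the nuclear complex I subunits and -0.34 for all rows.

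The promoters of the nuclear subunits were searched for the motifs of known regulators of respiratory genes, since the nuclear genes stand in many places of the genome while the mitochondrial ones share their transcripts. RefSeq windows of 300 bases around the start site (GRCm38.p6) were found for 32 of the 35 nuclear genes. The motif of NRF1, an activator of respiratory genes, written GCGCA and GCGC with any base between them, stood in 21.9% of the 32 genes on either strand, and in 4.60% of all 32851 windows. AAGATGGC, the motif of YY1, also stood in 21.9%, and in 2.75% of all windows. Counted over the 34 windows of these genes, the shares were 23.5% and 20.6%. The ETS motif CCGGAAG stood in 11.8% of the members' windows and 8.86% of all, the SP1 motif GGGCGG in 47.1% and 35.7%, TATAAA in 14.7% and 13.6%, and CCAAT in 29.4% and 37.4%. A match describes letters in the window and not a site in use.

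The windows of 4 genes are shown, Ndufs6 because it holds both of these motifs, and Ndufs4, Ndufb11 and Ndufa11 because their values went furthest from those of the other nuclear subunits. Capitals mark the NRF1 motif and AAGATGGC in Ndufs6, Ndufs4 and Ndufa11 and the reverse complement of CCAAT in Ndufb11. They lie at chr13:73328433-73328732 (Ndufs6, minus strand), chr13:114388045-114388344 (Ndufs4, minus strand), chrX:20617570-20617869 (Ndufb11, minus strand) and chr17:56717512-56717811 (Ndufa11, plus strand).
Ndufs6: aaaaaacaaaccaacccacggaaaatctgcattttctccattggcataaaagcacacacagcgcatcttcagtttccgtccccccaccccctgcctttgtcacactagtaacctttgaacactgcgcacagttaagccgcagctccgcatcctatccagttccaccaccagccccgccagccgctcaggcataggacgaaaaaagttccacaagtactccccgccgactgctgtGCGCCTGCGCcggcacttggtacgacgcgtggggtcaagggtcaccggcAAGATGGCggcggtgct
Ndufs4: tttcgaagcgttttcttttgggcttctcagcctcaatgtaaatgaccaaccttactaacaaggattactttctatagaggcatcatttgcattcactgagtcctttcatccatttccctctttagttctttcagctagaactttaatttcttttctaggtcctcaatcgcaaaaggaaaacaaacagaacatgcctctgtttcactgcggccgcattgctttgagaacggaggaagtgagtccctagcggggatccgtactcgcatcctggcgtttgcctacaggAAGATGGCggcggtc
Ndufb11: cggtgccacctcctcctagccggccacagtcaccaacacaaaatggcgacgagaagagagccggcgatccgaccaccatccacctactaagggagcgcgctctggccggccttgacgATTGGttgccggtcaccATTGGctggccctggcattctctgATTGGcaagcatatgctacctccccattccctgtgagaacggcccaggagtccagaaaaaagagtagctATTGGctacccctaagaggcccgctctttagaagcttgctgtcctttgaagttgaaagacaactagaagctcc
Ndufa11: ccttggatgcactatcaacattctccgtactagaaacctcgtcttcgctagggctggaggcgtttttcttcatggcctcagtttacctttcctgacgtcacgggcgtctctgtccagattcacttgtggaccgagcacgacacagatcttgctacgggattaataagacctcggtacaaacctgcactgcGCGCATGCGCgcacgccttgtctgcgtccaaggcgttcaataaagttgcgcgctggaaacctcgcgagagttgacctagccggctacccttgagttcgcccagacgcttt
In Ndufs6 the NRF1 match begins at -16 from the start site, on the opposite strand, and AAGATGGC at 34. In Ndufs4, the subunit that was higher in M1, AAGATGGC stands at nearly the same place, 36. The window of Ndufb11 holds 4 inverted CCAAT letters at -23, -92, -116 and -133 and neither of the other motifs, and in Ndufa11 the NRF1 motif begins at -60.

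Genes that express mitochondrial DNA and nuclear regulators of respiration were taken as further lists. Of 22 genes for mitochondrial transcription, RNA processing and replication tested, 16 were higher (72.7%, against 65.6% of all rows) and 6 lower with PBM (median log2 fold change 0.063), and none reached an unadjusted p of at most 0.05. Against M0, 15 of 23 (65.2%) were lower in M1 without overlap and 3 (13%) higher, as were 50.6% and 15.6% of all rows. Both counts were the same without M0 replicate 3, where the shares of all rows were 57.4% and 18.7%. Lrpprc, which stabilizes mitochondrial mRNAs, measured 8.12 to 8.59 FPKM in M0 and 2.87 to 5.30 in M1, while its binding partner Slirp measured 3.53 to 4.42 in M0 and 7.49 to 8.95 in M1. Pnpt1, a subunit of the mitochondrial RNA degradosome, measured 5.47 to 7.85 in M0 and 14.4 to 17.3 in M1, and Tefm, the mitochondrial transcription elongation factor, 1.93 to 2.51 and 2.61 to 3.32.

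Of the nuclear regulators, Esrra, a nuclear receptor for respiratory genes, measured 8.26 to 8.78 FPKM in M0 and 16.7 to 18.0 in M1, and Gabpb1 1.62 to 2.21 and 2.26 to 2.61. Gabpa, the DNA-binding partner of Gabpb1, measured 5.17 to 5.71 in M0 and 3.09 to 3.44 in M1, Yy1 11.4 to 12.8 and 7.48 to 8.47, and Nrf1 1.84 to 2.27 and 1.35 to 1.44. In all, 42.9% of 7 regulators were lower in M1 without overlap and 28.6% higher, against 50.6% and 15.6% of all rows. The log2 difference of Nrf1 was -0.36, close to the median of all rows (-0.34). The coactivator Ppargc1a was at or below 0.026 FPKM in every library. With PBM, 5 of 7 regulators tested were higher and 2 lower, and none reached an unadjusted p of at most 0.05.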

How the data were processed

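Gene expression was measured by RNA-seq in 9 libraries, 3 each of M0, M1 and M1+PBM macrophages, grouped by the labels. The authors deposited FPKM values per gene in 2 tables, M0 in one and M1 with M1+PBM in the other. Per the study's methods the values come from Cufflinks, and the submitters' processing notes name Bowtie 0.12.2 and mm9. Since 99.7% of the Ensembl identifiers are in GENCODE M21, an annotation of GRCm38, the build of the values is not settled, and coordinates are given only for the reference sequences. RNA is labelled total RNA, and the study's methods name mRNA enrichment. No counts were used, and the depth behind each FPKM is unknown: 27.5% to 33.2% of low values came out whole within 0.05 (10% would for evenly spread values), so no reads were recovered.

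The 42 members and all gene lists were chosen with earlier results of these data known. Rows with FPKM of at least 1 in at least 3 libraries were tested on log2(FPKM + 1) with limma 3.58.1 in R 4.3.3 (moderated variance with a trend on mean expression, two-sided, Benjamini-Hochberg over all rows). Fold changes on this scale understate the change of low genes. Called were an unadjusted p of at most 0.05, the same with a log2 fold change of 1 or more in either direction (the thresholds of the study), an adjusted p under 0.05, and groups without overlap. Exact two-sided permutation tests used scipy 1.17.1. The limma step was tested on simulated data. M1 against M0 was described without a test, as differences of mean log2(FPKM + 1). Values in every library were given for the 7 mitochondrial and 6 nuclear core subunits, for the 3 nuclear members with the largest difference in each direction of each comparison, and for members with an unadjusted p of at most 0.05. In the other lists, up to 4 genes a list with such a p were to be named. Genes of the lists named for their levels against M0 (Ndufaf7, Lrpprc, Slirp, Pnpt1, Tefm and the regulators) were chosen after their values were seen. Copies were found with BLAST 2.17.0.

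Replicate numbers come from the titles. Deviations from the group means correlated between same-numbered libraries of M1 and M1+PBM (r = 0.16, 0.47 and 0.46 across genes), and were -0.49 to 0.033 between different numbers, so the numbers were taken to pair the samples and the replicate number was fitted as a block in an alternative.
Alternatives were another pseudocount, other filters, other scalings, other variance models and leaving out each library.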

Additional observations from a re-analysis of the deposited data

How the results depend on the processing

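The 42 subunits had no adjusted p under 0.05 and none past the fold threshold under any alternative run. The count higher with PBM at an unadjusted p of at most 0.05 (1) was 0 with a mean FPKM of at least 5, with median-of-ratios scaling, with quantile normalization and without both libraries numbered 3 (chosen after seeing the data), 2 with nuclear rows rescaled to a common sum and 3 without moderation of the variance, and 0 to 2 when each library was left out. The count lower (1) was 2 with median-of-ratios scaling, 0 with rescaled nuclear rows and without both libraries numbered 3, and 0 to 1 when each library was left out. With the replicate number as a block the counts were 1 higher and 1 lower, and the block changed no call of a subunit, although over all rows 988 passed the unadjusted p in place of 543. For M1 against M0 the nuclear median (-0.38) became 0.061 under median-of-ratios scaling and -0.17 under quantile normalization. The nuclear subunits lower without overlap (29) were 7 and 17, against 24.1% and 31.1% of all rows. Those higher without overlap (1) were 8 and 1, against 32.5% and 25% of all rows. The mitochondrial subunits lower without overlap (5) were 1 with median-of-ratios scaling. The cause was not tested.

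Single subunits turned direction between M1+PBM and M1: mt-Nd2 (-0.012) and Ndufv1 (-0.011) with median-of-ratios scaling, Ndufa7 (0.029) with rescaled nuclear rows, and, without both libraries numbered 3, mt-Nd1 (-0.075), mt-Nd2 (-0.19), mt-Nd4 (-0.13), mt-Nd4l (-0.099), mt-Nd5 (-0.0026), Ndufv1 (-0.051) and Ndufv2 (-0.11). Leaving out each library gave ranges of -0.26 to 0.49 for mt-Nd1, -0.39 to 0.49 for mt-Nd2, -0.36 to 0.49 for mt-Nd4, -0.29 to 0.55 for mt-Nd4l, -0.17 to 0.35 for mt-Nd5, -0.14 to 0.30 for mt-Nd6, -0.019 to 0.11 for Ndufv1, -0.076 to 0.22 for Ndufv2, -0.035 to 0.20 for Ndufs8 and -0.14 to 0.10 for Ndufa7. Of 533 alternative values of the 19 subunits given by library, 461 kept direction and side of the threshold or moved by less than the spread. A change of variance model, block or row filter leaves the size of a difference as it is, so part of this count was fixed in advance. Over all rows, the unadjusted p was passed by 1318 with no minimum FPKM, 233 with a mean FPKM of at least 5 and 252 to 1092 when each library was left out, and both thresholds (32) by 75 with a pseudocount of 0.1, 13 without moderation, and 27 to 89 when each library was left out. The split of 366 higher and 177 lower was 234 and 283 with median-of-ratios scaling and 260 and 254 with quantile normalization. Depth was not known, so no limit of detection could be given.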
